A study of Mus musculus with 5 samples.

Results

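Glutamate carries most fast excitation in the brain, and a neuron's response to it depends on which receptor subunits it makes and on the scaffold that holds them at the synapse. The transcripts described here are 36 genes of that machinery, taken by name in all 5 libraries out of 32285 features: 4 AMPA receptor subunits (Gria1 to Gria4), 6 NMDA receptor subunits (Grin1, Grin2a to Grin2d and Grin3a), 5 kainate receptor subunits (Grik1 to Grik5), 6 metabotropic glutamate receptors (Grm2, Grm3, Grm4, Grm5, Grm7 and Grm8), 4 membrane-associated guanylate kinases of the Dlg family, 3 Shank, 3 Homer and 3 neuroligin genes, and the kinase genes Camk2a and Camk2b. All 36 were found under their symbols. AMPA receptors without the Gria2 product pass calcium. NMDA receptors need the Grin1 product, and the Grin2 gene used sets how long the channel stays open; in rodent forebrain Grin2b is known to dominate around birth and Grin2a to be added later. Dlg, Shank and Homer proteins stack beneath the membrane, neuroligins bind presynaptic neurexins across the cleft, and the CaMKII kinases respond to calcium that enters through the receptors.

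Hippocampus of mouse pups at postnatal day 1 was dissociated with papain and profiled as single cells with a droplet kit that reads transcript 3′ ends. There were 2 libraries from Trem2 knockout pups (Trem2 -/-, replicates 2 and 3) and 3 from wild-type pups (Trem2 +/+, replicates 1, 2 and 3), each from 2 pooled pups. Per the descriptions, the pups of the replicates numbered 2 were all male and the other pools held 1 male and 1 female, while the sex field gives both sexes for every library. The construction of the knockout allele is not described here, and p-values measure the spread between pools.

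The files held 40345 barcodes and 357583111 UMIs (unique molecular identifiers, each standing for one captured transcript molecule), from 60024793 to 91205882 per library. Any 2 libraries shared 8 to 21 barcodes. After limits on quality, 30699 cells remained and 25490 fell into a marker-gated class, with no member of the 36 used as a marker. Levels are given as CPM, the usual scaling of a gene's UMIs by all UMIs of its class in a library, with mean ± SD over the 5 libraries unless stated. Trem2 itself, in microglia-like cells, stood at 44.1 and 67.8 CPM in knockout libraries, against 1107, 1237 and 795 CPM in wild-type libraries, in the direction of the labels.

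The classes used most were excitatory neurons (10508 cells), inhibitory neurons (1706), Cajal-Retzius-like neurons (1257), astrocyte and radial glia-like cells (5993) and oligodendrocyte precursor-like cells (1124). Within excitatory neurons, 1425 were CA1-like and 2102 CA3-like. A further 2637 had Prox1 and Neurod1, the gate written for dentate granule neurons, but the other 5 markers of that list averaged at most 2.97 CPM (Tdo2) there, so the class is called Prox1/Neurod1 neurons. The remaining 4344 excitatory neurons met no subfield gate. Pou3f1, the leading CA1 marker, averaged 5.70 CPM in CA3-like and 484 CPM in CA1-like neurons, and Cpne4, part of the CA3 gate, 207 CPM in CA3-like neurons. Both genes were used to gate these classes, so their levels describe the gates and are no separate check of identity. Of the 9 listed CA3 markers, Nectin3, Ociad2 and Dkk3 rose and fell with CA1 markers or with neither and were not counted. Levels of the other listed CA1 and CA3 markers are not given here. The CA1-like class also had 219.9 CPM of Nts, a neuropeptide gene, and whether it holds cells of other regions was not tested.

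The stretch of genome before a gene's start is where much of its control sits. REST, a repressor known to keep neuronal genes silent in other cells, binds an element whose left and right parts read TCAGCACC and GGACAG. RefSeq promoter windows (build GRCm38.p6), the 250 bases before a start site on the gene's strand, existed for 24 of the 36 genes, in 38 windows. GGACAG, on either strand, was in 7 of the 38 windows and in 18.7% of all 32851 promoter windows. TCAGCACC was in 2 of the 38 and in 1.32% of all, and both parts were in 1 window, that of Grm2, against 0.256% of all windows. Shown 5′ to 3′ are Grm2, which held both parts, Gria2, the most abundant of the 36, and Grin1, the obligatory NMDA subunit. Capitals mark either part on either strand (the reverse complement of GGACAG reads CTGTCC).
Grm2 promoter, chr9:106656110-106656359, minus strand: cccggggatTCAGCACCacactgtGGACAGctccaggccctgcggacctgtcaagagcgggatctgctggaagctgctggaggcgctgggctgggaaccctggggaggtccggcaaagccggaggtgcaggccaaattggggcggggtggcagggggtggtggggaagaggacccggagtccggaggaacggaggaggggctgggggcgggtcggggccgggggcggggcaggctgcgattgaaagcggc
Gria2 promoter, chr3:80802836-80803085, minus strand: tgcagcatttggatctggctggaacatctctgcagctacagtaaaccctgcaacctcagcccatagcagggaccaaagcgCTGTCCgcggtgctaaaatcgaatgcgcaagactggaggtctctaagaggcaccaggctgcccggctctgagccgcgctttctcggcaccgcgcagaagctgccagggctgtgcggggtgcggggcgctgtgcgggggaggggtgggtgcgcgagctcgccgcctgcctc
Grin1 promoter, chr2:25319188-25319437, minus strand: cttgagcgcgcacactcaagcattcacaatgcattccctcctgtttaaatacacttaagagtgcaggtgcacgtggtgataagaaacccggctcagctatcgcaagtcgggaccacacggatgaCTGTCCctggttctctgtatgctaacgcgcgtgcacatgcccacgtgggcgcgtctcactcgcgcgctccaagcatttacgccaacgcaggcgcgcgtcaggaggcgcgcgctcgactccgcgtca
These letters are a description of the windows, not evidence of binding.

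Excitatory neurons led with Gria2 and Grin2b. Gria2, whose edited product keeps calcium out of AMPA receptors, stood at 671 and 661 CPM in knockout libraries, against 728, 726 and 721 CPM in wild-type libraries. Grin2b, the NMDA subunit of the newborn forebrain, followed at 396 and 467 CPM in knockout libraries, against 510.1, 382 and 521 CPM in wild-type libraries. Grin1, needed in every NMDA receptor, had far fewer transcripts, 29.6 and 38.1 CPM in knockout libraries, against 34.2, 25.2 and 34.2 CPM in wild-type libraries. The UMIs count molecules and are not scaled with transcript length, and a 3′ kit can capture genes unequally, so levels between genes are only roughly comparable. Among the scaffolds and kinases of excitatory neurons, Camk2b led with 274 ± 24.5 CPM, then Nlgn1, the neuroligin of excitatory synapses, with 141 ± 9.82, Shank1 with 103 ± 10.6, Homer1 with 83.4 ± 1.85 and Dlg4, which encodes PSD-95, with 79.7 ± 5.58 CPM. Grm5, the group I metabotropic receptor, averaged 162 ± 24.0 CPM, and Grik2, the most abundant kainate subunit, 72.3 ± 6.06 CPM. Grin3a, a subunit known to lower the calcium passed by NMDA receptors, varied most of these leading genes, with 31.2 and 49.5 CPM in knockout libraries and 54.9, 25.8 and 46.4 CPM in wild-type libraries. Wild-type replicate 2, lowest in Grin3a, also had the smallest share of CA1-like cells among its excitatory neurons, 7.14%, where the other 4 libraries had 13.3% to 15.1%. Knockout replicate 2, the next lowest in Grin3a, had a CA1-like share of 14.5%. These 2 libraries were also the lowest in Grin2b and Grin1, and they kept the fewest excitatory cells at a mitochondrial limit of 5%, 469 of 2310 cells in knockout replicate 2 and 293 of 1317 in wild-type replicate 2, against 949 to 2607 cells in the other libraries. By the descriptions they were also the all-male pools. The part of the CA1-like share, of mitochondrial content and of sex in these levels was not tested.

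**Figure D1:**
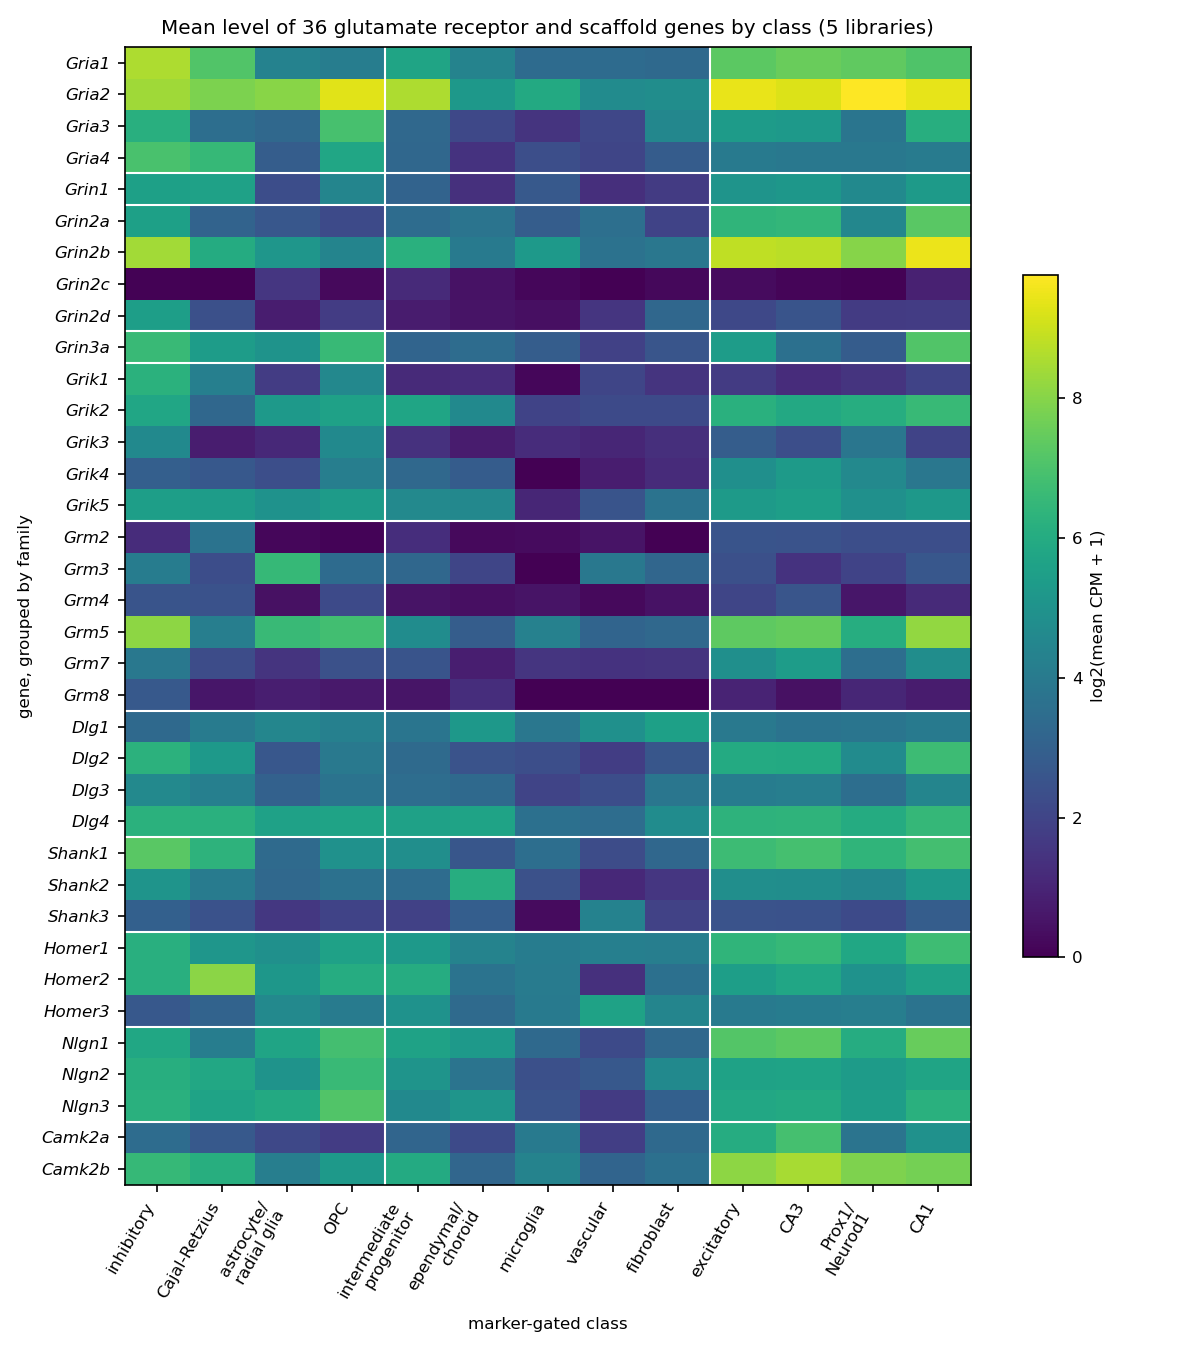
Heat map of the mean level over 5 libraries, as log2(mean CPM + 1), of the 36 genes (rows, grouped by family) in 13 marker-gated classes (columns; OPC is oligodendrocyte precursor-like, and the excitatory column contains the 3 columns to its right). Gria2 and Grin2b are bright across excitatory neurons, Gria1, Gria4, Grik1 and Grin2d in inhibitory neurons, Homer2 in Cajal-Retzius-like neurons, Grm3 in astrocyte and radial glia-like cells, and Homer3 and Shank3 in vascular cells.

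To rank the classes, the 4344 excitatory neurons that met no subfield gate were left out. Over 12 classes that share no cell, 27 of the 36 genes had their highest mean in a neuron class: 9 in CA1-like, 8 in inhibitory, 6 in CA3-like, 3 in Cajal-Retzius-like and 1 in Prox1/Neurod1 neurons. The other 9 peaked elsewhere, 3 of them in oligodendrocyte precursor-like cells (Gria3, Nlgn2 and Nlgn3), 2 in astrocyte and radial glia-like cells (Grm3 and Grin2c), 2 in vascular cells (Shank3 and Homer3), 1 in ependymal or choroid-like cells (Shank2) and 1 in fibroblast-like cells (Dlg1). No like count over all genes is given here, so these and the following counts describe the 36 genes only. For 22 of the 36 every library of the leading class was above every library of the next. For the other 14 the ranges overlapped, so their leading class is not set apart from the next, among them Grin1 (47.7 ± 7.69 CPM in Cajal-Retzius-like and 46.1 ± 5.57 in inhibitory neurons) and Grm5 (287 ± 39.1 in CA1-like and 273 ± 40.1 in inhibitory neurons).
Transcripts from broken cells reach every droplet, so vascular cells serve as a floor for genes that they should lack. Excitatory neurons exceeded vascular cells in 31 of the 36 genes, and by over 5-fold in 26, again without a like count over all genes. Gria2 was at 24.9 ± 6.45 and Grin2b at 11.9 ± 3.93 CPM in vascular cells. Shank3, a synaptic scaffold, was above its neuronal levels there, at 19.3 ± 5.97 CPM against 4.61 ± 0.711 CPM in excitatory neurons, and Homer3, a Homer known for high levels in cerebellar Purkinje cells, at 48.6 ± 9.62 against 15.1 ± 0.961 CPM. Shank2 averaged 67.7 ± 12.6 CPM in ependymal or choroid-like cells and 27.4 ± 2.44 CPM in excitatory neurons.

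Inhibitory neurons used another set of ionotropic subunits than excitatory neurons. Of the 35 genes tested 20 were higher and 13 lower, where 56.7% of all 13392 genes passed, 28.2% higher and 28.5% lower (edgeR, quasi-likelihood test, Benjamini-Hochberg adjustment over all genes, library as a block). The median log2 fold change was 0.29 over these genes and -0.01 over all genes tested. Grik1, a kainate subunit known in hippocampal interneurons, had 80.1 and 91.4 CPM in knockout and 79.6, 66.0 and 61.1 CPM in wild-type inhibitory neurons, and 1.59 to 2.79 CPM over the 5 libraries of excitatory neurons. The classes did not overlap (adjusted p = 9.63e-22). Grik1 in excitatory neurons was no higher than its 3.11 CPM in vascular cells, so no fold is given over excitatory neurons for this gene. Grin2d, an NMDA subunit known in early interneurons, averaged 43.9 ± 5.39 CPM in inhibitory and 3.29 ± 0.638 CPM in excitatory neurons, 13.3-fold (log2 3.73 ± 0.11 SE, adjusted p = 4.97e-19). Gria4 averaged 125 ± 14.5 against 15.3 ± 2.42 CPM, 7.89-fold (adjusted p = 2.42e-21), and Gria1 376 ± 43.0 against 159 ± 13.5 CPM (log2 1.23). Grm3, an inhibitory-coupled group II receptor, was higher (16.4 ± 1.96 against 4.23 ± 0.948 CPM, adjusted p = 5.15e-11). Its 14.2 CPM in vascular cells was above the excitatory level and near the inhibitory one, so no fold is given for it either.
On the other side stood the kinases and the Gria2 subunit. Camk2a, the kinase gene of mature excitatory synapses, averaged 9.84 ± 3.71 CPM in inhibitory and 65.8 ± 6.94 CPM in excitatory neurons (log2 -2.69 ± 0.12 SE, adjusted p = 3.41e-15), and Camk2b 92.4 ± 15.3 against 274 ± 24.5 CPM (log2 -1.56). Grik4, a high-affinity kainate subunit, was at 6.70 ± 3.31 against 27.8 ± 3.51 CPM (log2 -2.22), and Grm2, a group II receptor, at 1.35 ± 0.875 against 4.76 ± 1.36 CPM (log2 -1.77). Gria2 was lower (332 ± 22.7 against 702 ± 32.6 CPM, log2 -1.08), and so was Nlgn1 (log2 -1.40). Dlg4 and Grik5 did not pass the test (adjusted p = 0.23 and 0.089), and Grin2c, with 10 or fewer UMIs in any library of these classes, was filtered out. Of the related genes read beside the 36 (AMPA auxiliary subunits, Dlgap, Lrrtm, Slitrk and other postsynaptic genes) 30 of 50 tested were higher and 16 lower, led by Cacng3, an AMPA auxiliary subunit (log2 5.67), Neto1, a kainate auxiliary subunit (4.19), and at the other end Baiap2 (-2.63).

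**Figure D2:**
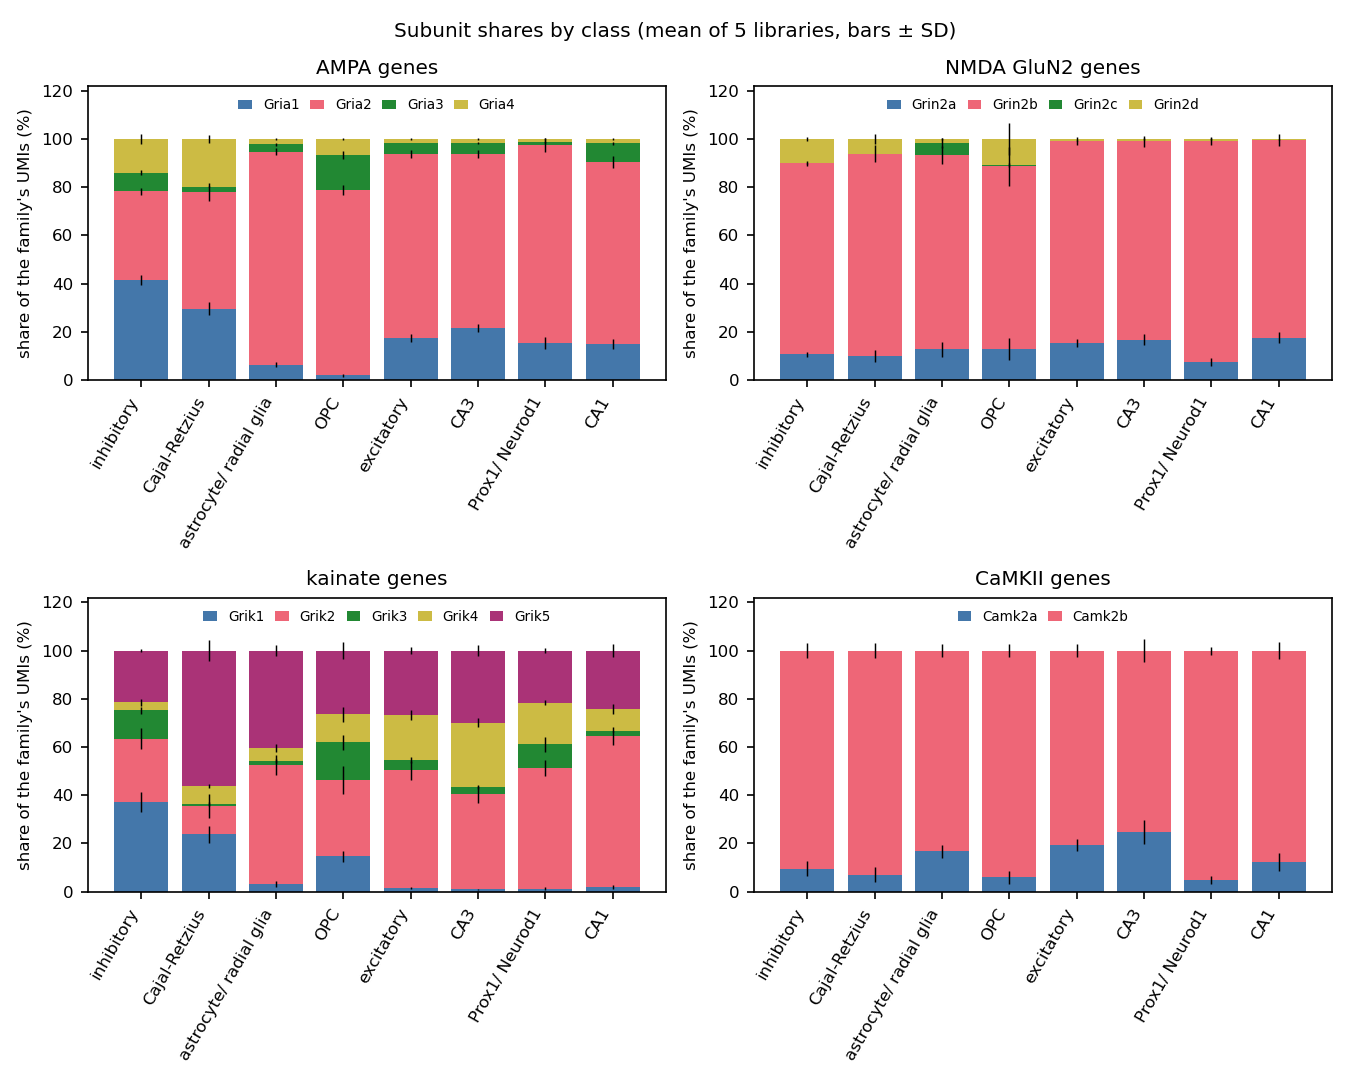
Stacked bars give each subunit's share of its family's UMIs (%, mean of 5 libraries, error bars ± SD) by class, for AMPA, GluN2, kainate and CaMKII genes. Gria2 takes 36.7% of AMPA transcripts in inhibitory and 76.6% in excitatory neurons, and Grik1 appears in inhibitory, Cajal-Retzius-like and OPC columns.

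Read as shares of a family, these differences changed which subunit led. In inhibitory neurons Gria1 made up 41.5% ± 2.25 of AMPA UMIs, Gria2 36.7% ± 1.41 and Gria4 13.9% ± 2.19, while in excitatory neurons Gria2 made up 76.6% ± 1.69, Gria1 17.4% ± 1.72 and Gria4 1.67% ± 0.251. For the GluN2 genes Grin2b led in both, with 79.1% ± 1.16 in inhibitory and 83.9% ± 1.66 in excitatory neurons. Grin2d took 10.1% ± 0.792 in inhibitory and 0.610% ± 0.0948 in excitatory neurons. The leading kainate gene was Grik1 in inhibitory neurons (37.0% ± 4.21) and Grik2 in excitatory neurons (48.8% ± 3.84). Homer1 and Homer2 were about even in inhibitory neurons (48.5% and 47.7%), where excitatory neurons had 58.5% and 30.9%.

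CA3-like and CA1-like neurons differed in Grin3a, Camk2a, Grm4 and Grik4, among others. Of 34 genes tested 10 were higher in CA3-like neurons and 15 lower, where 44.1% of all 11810 genes passed, 23.2% higher and 20.9% lower, and the median log2 fold change was -0.13 over these genes and -0.02 over all. Grin3a had 7.48 and 15.1 CPM in knockout and 14.7, 8.04 and 10.7 CPM in wild-type CA3-like neurons, against 107 and 155 CPM in knockout and 141, 139 and 139.9 CPM in wild-type CA1-like neurons. The classes lay far apart in every library (log2 -3.57 ± 0.08 SE, adjusted p = 8.94e-20). Camk2a went the other way, with 94.7 and 100.3 CPM in knockout and 118, 152 and 119.8 CPM in wild-type CA3-like neurons, against 19.9 and 25.7 CPM in knockout and 41.4, 36.4 and 25.3 CPM in wild-type CA1-like neurons, 4.11-fold (adjusted p = 1.32e-15). Grik4, which with Grik2 forms kainate receptors at mossy fibre synapses on CA3, was 3.01-fold higher (39.4 ± 4.16 against 13.8 ± 3.50 CPM, adjusted p = 8.72e-12). Grm4, a group III presynaptic receptor, was 4.09-fold higher at low levels (5.02 ± 0.775 against 1.26 ± 0.507 CPM, adjusted p = 3.08e-06), and so was Grin2d, 1.99-fold (4.83 ± 1.78 against 2.36 ± 0.324 CPM, adjusted p = 0.0012).
Grm3 was lower in CA3-like neurons (log2 -1.49), though over all excitatory neurons it averaged 4.23 CPM, under its 14.2 CPM in vascular cells. Gria3 was lower too (37.9 ± 2.90 against 68.4 ± 8.55 CPM, log2 -0.80). So was Grin2a, the NMDA subunit added with maturation (88.4 ± 7.54 against 153 ± 17.4 CPM, log2 -0.76 ± 0.06 SE, adjusted p = 9.27e-11). Grin2b was lower by a like amount (log2 -0.68), and the Grin2a share of GluN2 UMIs was 16.8% ± 2.38 in CA3-like and 17.6% ± 2.32 in CA1-like neurons, which differed by less than the spread. The kainate make-up differed: Grik4 took 26.9% ± 1.85 and Grik2 39.6% ± 3.63 in CA3-like neurons, against 9.17% ± 2.14 and 62.8% ± 3.63 in CA1-like neurons. CaMKII transcripts were 24.8% ± 4.91 Camk2a in CA3-like and 12.4% ± 3.67 in CA1-like neurons. With DESeq2 in place of edgeR, 9 genes were lower instead of 15. Of the related genes 11 of 48 were higher and 20 lower, with Shisa9, an AMPA auxiliary protein, at log2 1.66 and Camk2d at log2 -2.38.

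Prox1/Neurod1 neurons, set against CA1-like neurons, had less of most of these genes. Of 33 tested, 6 were higher and 23 lower, where 60.1% of all 11641 genes passed, 30.5% higher and 29.6% lower, with a median log2 fold change of -0.64 over these genes and 0.02 over all. Grin3a averaged 6.13 ± 1.58 against 136 ± 17.6 CPM (log2 -4.43 ± 0.10 SE, adjusted p = 8.11e-14), Grin2a 21.7 ± 8.24 against 153 ± 17.4 CPM (log2 -2.78), Gria3 13.0 ± 2.75 against 68.4 ± 8.55 CPM (log2 -2.33) and Grm5 66.9 ± 23.8 against 287 ± 39.1 CPM (log2 -2.07). Gria2 went the other way and was higher, 873 ± 53.2 against 671 ± 31.0 CPM (log2 0.39 ± 0.05 SE, adjusted p = 6.50e-06), and Grik3, a kainate subunit, was 4.58-fold higher (13.2 ± 4.57 against 2.91 ± 0.666 CPM, adjusted p = 1.59e-07). Grik4 was 1.76-fold and Homer3 1.41-fold higher, and Homer3 did not pass with DESeq2 (adjusted p = 0.055). Grin2b made up 91.6% ± 1.65 and Grin2a 7.57% ± 1.65 of GluN2 UMIs in Prox1/Neurod1 neurons, against 82.1% ± 2.37 and 17.6% ± 2.32 in CA1-like neurons. The Prox1/Neurod1 cells were also shallower, with a median of 7081 to 8674 UMIs per cell by library, against 10887.5 to 17131 in CA1-like neurons. Of the related genes 5 of 48 were higher and 32 lower. The higher ones included Gsg1l, an AMPA auxiliary protein (log2 5.25), and Lrrtm4, a synaptic adhesion protein of granule cells (2.99).

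**Figure D3:**
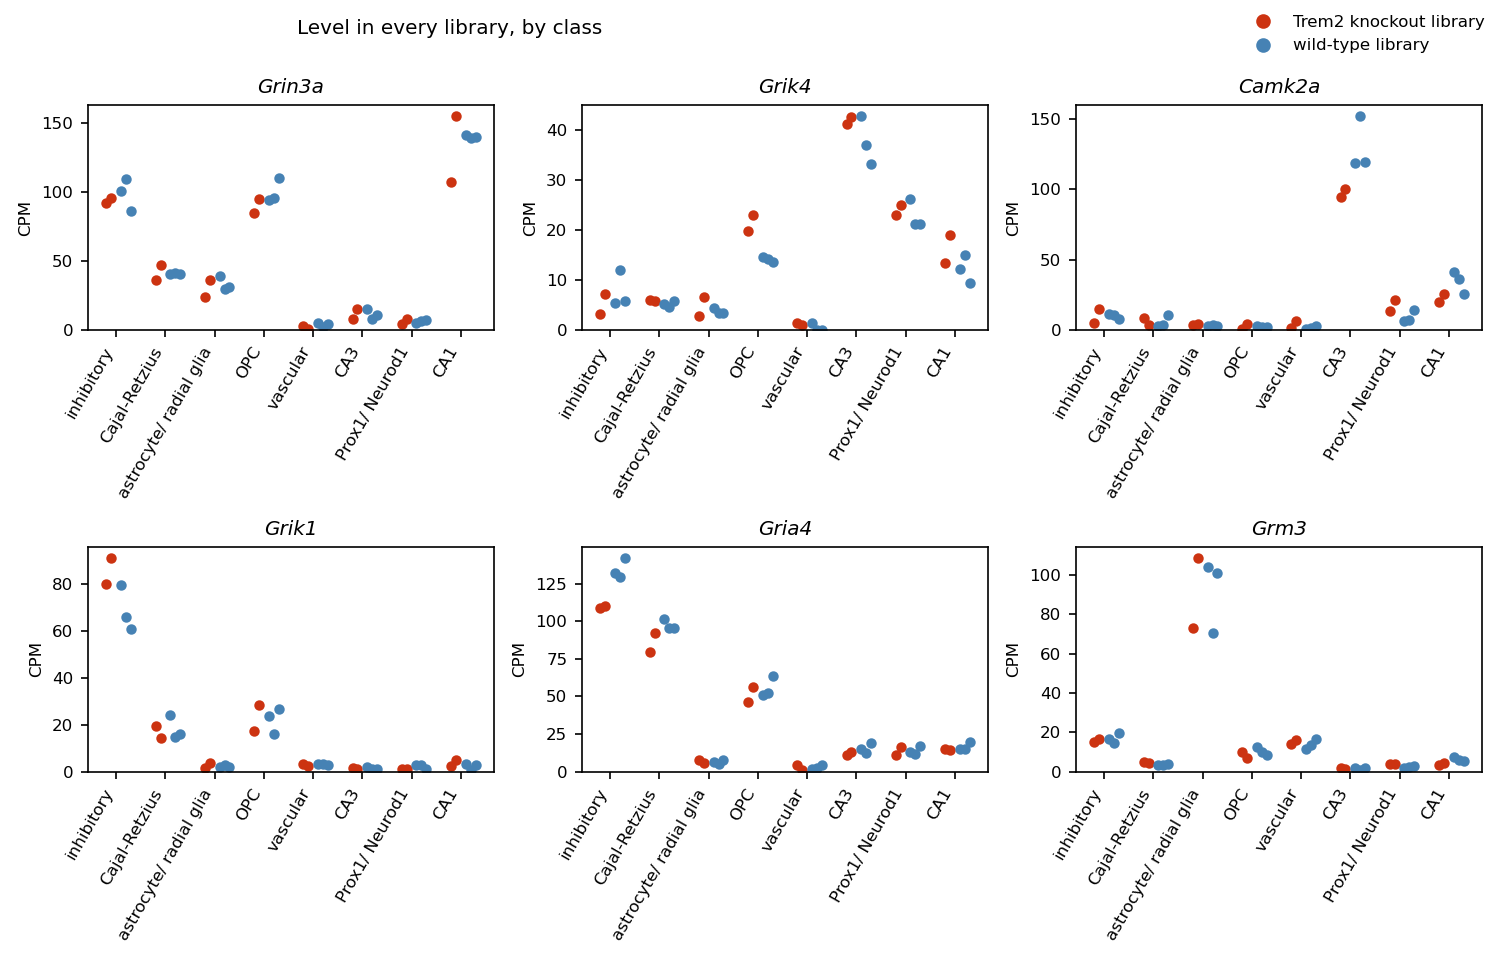
Each point is 1 library's CPM (y axis, linear, from 0) in a class (x axis; OPC is oligodendrocyte precursor-like) for 6 genes, knockout libraries left of wild-type ones. Grin3a is high in CA1, inhibitory and OPC columns and low in CA3 and Prox1/Neurod1 columns, Camk2a and Grik4 lead in CA3, Grik1 and Gria4 in inhibitory neurons and Grm3 in astrocyte and radial glia-like cells, in every library.

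Cajal-Retzius-like neurons, the early Reln-producing cells of the marginal zone, had a make-up of their own. Of 34 genes tested 7 were higher than in excitatory neurons and 20 lower, where 68.6% of all 13347 genes passed, 33.5% higher and 35.1% lower, and the median log2 fold change was -0.30 over these genes and -0.01 over all. Homer2, a scaffold that links group I receptors to calcium stores, had 279.7 and 287 CPM in knockout and 269, 254 and 236 CPM in wild-type Cajal-Retzius-like neurons, against 42.7 to 47.5 CPM over the libraries of excitatory neurons. That made it 5.95-fold higher (log2 2.57 ± 0.05 SE, adjusted p = 1.80e-16), and it took 86.5% ± 1.51 of Homer UMIs. Grik1 was higher (17.8 ± 4.07 against 2.21 ± 0.478 CPM, adjusted p = 1.15e-11), as were Gria4, 5.98-fold (92.9 ± 8.10 against 15.3 ± 2.42 CPM), and Grm2, 2.53-fold (12.3 ± 3.99 against 4.76 ± 1.36 CPM). Lower were Camk2a (5.62 ± 3.58 against 65.8 ± 6.94 CPM, log2 -3.50), Grin2a (7.55 ± 2.67 against 83.1 ± 10.1 CPM, log2 -3.44), Grik3 (log2 -3.27) and Grm5 (17.2 ± 5.29 against 162 ± 24.0 CPM, log2 -3.24). Grin1 was higher (log2 0.55) although Grin2b was lower (63.1 ± 21.3 against 455 ± 63.8 CPM, log2 -2.88). Nlgn1 took 13.4% ± 4.34 of neuroligin UMIs in Cajal-Retzius-like and 57.0% ± 0.704 in excitatory neurons. Of the related genes 12 of 49 were higher and 30 lower.

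Glial classes kept some of these genes at or above neuronal levels. In astrocyte and radial glia-like cells 4 of 36 genes were higher than in excitatory neurons and 29 lower, where 84.3% of all 14716 genes passed, 41.6% higher and 42.7% lower, with a median log2 fold change of -1.52 over these genes and -0.01 over all. Grm3, the group II receptor known in astrocytes, had 72.9 and 109 CPM in knockout and 104, 70.7 and 101 CPM in wild-type libraries, against 2.58 to 4.88 CPM over the libraries of excitatory neurons, 20.3-fold (log2 4.34 ± 0.09 SE, adjusted p = 3.29e-14). The size of that fold rests on an excitatory level under the 14.2 CPM of Grm3 in vascular cells. Grin2c, a GluN2 gene known in astrocytes, was 8.25-fold higher at 1.95 ± 0.453 against 0.213 ± 0.164 CPM, on 13 to 41 UMIs per library (adjusted p = 1.27e-06). Homer3 (1.47-fold) and Dlg1 (1.40-fold) were also higher. Grm5 was lower than in excitatory neurons, yet at 98.4 ± 13.9 CPM it made up 51.2% ± 3.71 of metabotropic UMIs beside 47.2% ± 3.57 for Grm3. Camk2a (3.38 ± 0.603 against 65.8 ± 6.94 CPM, log2 -4.40), Grm7, a group III receptor (log2 -4.11), Camk2b (17.0 ± 2.37 against 274 ± 24.5 CPM, log2 -4.09) and Grm2 (log2 -4.97) were furthest down, and Camk2a was then near its 2.50 ± 2.35 CPM in vascular cells. Of the related genes 7 of 50 were higher, among them Camk2d (log2 3.62), and 38 lower.
Oligodendrocyte precursor-like cells are known to receive glutamatergic input from neurons. Of 34 genes 9 were higher there than in excitatory neurons and 19 lower, where 72.6% of all 13492 genes passed, 35.3% higher and 37.3% lower, with medians of -0.64 over these genes and -0.03 over all. Grik1 was higher (22.4 ± 5.50 against 2.21 ± 0.478 CPM, adjusted p = 1.71e-14). Grik3 was 3.64-fold (23.8 ± 7.69 against 6.32 ± 1.55 CPM), Gria4 3.34-fold (54.0 ± 6.48 against 15.3 ± 2.42 CPM) and Gria3 2.85-fold higher (121 ± 19.8 against 40.2 ± 2.34 CPM, adjusted p = 1.99e-15). Nlgn3 (log2 1.21), Grin3a (95.7 ± 9.18 against 41.5 ± 12.5 CPM, log2 1.15) and Nlgn2 (log2 0.90) were higher too. Gria2, at 639 ± 90.1 CPM, stood near its level in excitatory neurons (log2 -0.21, past the test) and made up 77.0% ± 2.15 of AMPA UMIs. Gria1, its main companion in excitatory neurons, took 1.95% ± 0.618. Grin2b (20.4 ± 11.0 against 455 ± 63.8 CPM, log2 -4.49), Grin2a (3.56 ± 2.11 against 83.1 ± 10.1 CPM, log2 -4.48), Camk2a (log2 -4.91) and Grm2 (log2 -5.50) were lowest, with Grin2a under its 10.8 ± 3.46 CPM in vascular cells. Grm2 had UMIs in 1 of the 5 precursor libraries. Of the related genes 17 of 50 were higher and 26 lower.

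The study set Trem2 knockout against wild-type pups to ask what the loss of this microglial receptor does in the developing hippocampus. In none of the 7 classes compared did any of the 36 genes pass the test, and 0.0% of all genes were called in each (edgeR, 10873 to 15306 genes per class). DESeq2 called none of the 36 either. At an unadjusted p under 0.05 there was 1 gene of 35 in excitatory neurons, 2 of 33 in CA1-like, 2 of 34 in CA3-like, 8 of 33 in Prox1/Neurod1 and 3 of 34 in inhibitory neurons, 0 of 33 in astrocyte and radial glia-like cells and 3 of 27 in oligodendrocyte precursor-like cells. The shares of all genes below that p were 2.87%, 4.26%, 3.38%, 4.65%, 4.70%, 1.96% and 3.42% in the same order. Without 1 wild-type library the count of 8 in Prox1/Neurod1 neurons was 3 of 32 (without replicate 1), 5 of 32 (without replicate 2) or 10 of 33 (without replicate 3). Leaving out a knockout library leaves a single knockout library, so only the effect size is given for those fits. The median log2 fold change of these genes in Prox1/Neurod1 neurons was then 0.25 (without knockout replicate 2) or 0.04 (without knockout replicate 3). The counts in the other classes ranged over 0 to 5 with a wild-type library left out. Members' median log2 fold changes lay between -0.04 (CA1-like) and 0.12 (Prox1/Neurod1), and those of all genes between -0.01 and 0.00. Knockout excitatory neurons had more UMIs per cell, with medians of 9540.5 and 10991, against 8630, 9114 and 8895 in wild-type libraries. Over all barcodes the medians overlapped, at 6911 and 7688 in knockout libraries, against 7597, 7663 and 6871 in wild-type libraries. In CA1-like neurons they were 10887.5 and 14650, against 13287, 17131 and 13411.5. The part of UMIs per cell in the values that follow was not tested. With 2 against 3 libraries, the smallest p of an exact permutation test is 0.1.

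**Figure D4:**
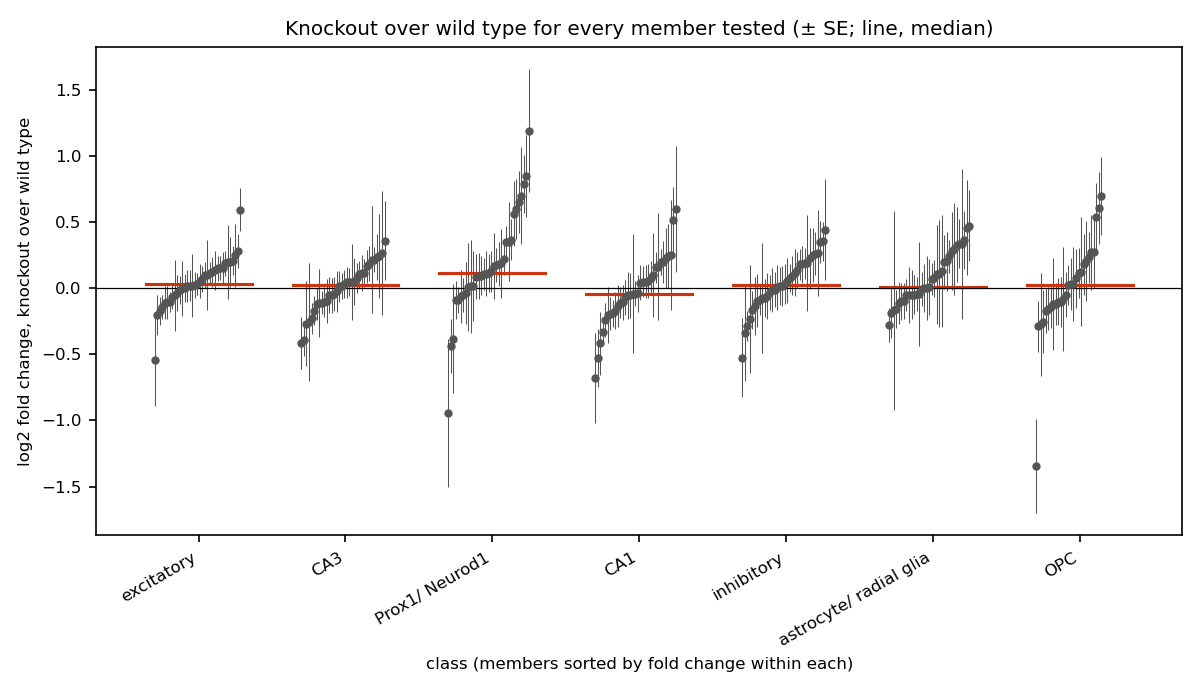
Points are the 36 genes tested in each class (27 to 35 of them), sorted, with the log2 fold change of knockout over wild type on the y axis, bars of 1 SE and a line at the median. No gene passed the test in any class, and Grin2b in OPC (oligodendrocyte precursor-like cells), at -1.34, lies furthest from 0.

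The genes nearest to the threshold differed between classes. In excitatory neurons Grik3 had 8.37 and 7.41 CPM in knockout libraries, against 5.48, 4.54 and 5.80 CPM in wild-type libraries (log2 0.59 ± 0.16 SE, adjusted p = 0.999), Grik4 29.8 and 31.9 against 25.8, 28.6 and 22.9 CPM (log2 0.28 ± 0.13), and Shank1 99.0 and 121 against 98.5, 94.9 and 100.3 CPM (log2 0.19 ± 0.09). The groups did not overlap for either kainate gene. In CA1-like neurons Grm5 had 234 and 257 CPM in knockout libraries, against 311, 323 and 311 CPM in wild-type libraries (log2 -0.33 ± 0.10), again without overlap. Camk2a (log2 -0.53 ± 0.22) and Grik4 (0.52 ± 0.25) were next, with overlapping groups. In CA3-like neurons Camk2a had 94.7 and 100.3 CPM in knockout libraries, against 118, 152 and 119.8 CPM in wild-type libraries (log2 -0.40 ± 0.12), without overlap, as for Grin2a at 91.1 and 100.4 against 82.0, 84.2 and 84.1 CPM (log2 0.22 ± 0.10). Gria4 followed in CA3-like neurons (log2 -0.41 ± 0.20). Over all 7 classes the adjusted p of these genes was 0.972 or higher.
In Prox1/Neurod1 neurons Grik3 had 17.8 and 17.8 CPM in knockout libraries, against 8.86, 8.60 and 12.8 CPM in wild-type libraries (log2 0.79 ± 0.22). Gria1 had 172 and 204 against 155, 131 and 159 CPM (log2 0.35 ± 0.12) and Dlg2, another PSD-95 relative, 32.9 and 33.2 against 14.8, 17.2 and 29.3 CPM (log2 0.66 ± 0.24). None of these overlapped. In this class 25 of 33 genes had a fold change above 0, and so did 38 of 47 related genes (median log2 0.21) and 49.1% of all genes. Without knockout replicate 3 the count was 18 of 33 and the median log2 fold change of these genes 0.04, where it was 0.12 with all libraries. Without knockout replicate 2 they were 28 of 33 and 0.25. Leaving out wild-type replicates 1, 2 and 3 in turn gave 22 of 32 (median 0.13), 23 of 32 (0.17) and 25 of 33 (0.19). Without wild-type replicate 3, the nearest to the knockout values for both genes, Dlg2 (log2 1.05, adjusted p = 0.031) and Grm5 (log2 0.95, adjusted p = 0.030) passed the test. In inhibitory neurons Gria4 had 109 and 110.2 CPM in knockout libraries, against 132, 129.6 and 142 CPM in wild-type libraries (log2 -0.28 ± 0.12), and Grik1 80.1 and 91.4 against 79.6, 66.0 and 61.1 CPM (log2 0.36 ± 0.15). Neither overlapped, while Nlgn1 did (log2 0.35 ± 0.16). In astrocyte and radial glia-like cells the smallest p-values belonged to Grm5 (log2 -0.28 ± 0.13), Homer2 (0.24 ± 0.12) and Shank1 (0.34 ± 0.18).
In oligodendrocyte precursor-like cells Grin2b had 9.94 and 10.6 CPM in knockout libraries, against 17.4, 33.0 and 31.1 CPM in wild-type libraries (log2 -1.34 ± 0.36), on 12 and 12 UMIs against 55, 60 and 69. Its level in vascular cells of the same libraries was 17.1 and 6.07 CPM in knockout libraries, against 11.4, 12.1 and 12.7 CPM in wild-type libraries, so the knockout values are at the level of that class. Dlg2 (log2 0.70 ± 0.30) and Grik4 (0.61 ± 0.27) were next. Counting genes with at least 50 UMIs, the groups did not overlap for 6 of 35 genes in excitatory neurons (17.9% of all genes), 8 of 32 in CA1-like (19.0%), 4 of 34 in CA3-like (18.9%), 10 of 32 in Prox1/Neurod1 (19.6%) and 5 of 34 in inhibitory neurons (19.1%), 4 of 32 in astrocyte and radial glia-like cells (15.2%) and 6 of 27 in oligodendrocyte precursor-like cells (19.1%). Higher in the knockout were 3 of the 6 in excitatory neurons, 1 of the 8 in CA1-like, 1 of the 4 in CA3-like, 8 of the 10 in Prox1/Neurod1 and 3 of the 5 in inhibitory neurons, all 4 in astrocyte and radial glia-like cells and 4 of the 6 in oligodendrocyte precursor-like cells. The shares of all genes above cover both directions together, so these directions have no background beside them and nothing is read from them.

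Whether the knockout effect differed between classes was tested with an interaction term. Between inhibitory and excitatory neurons 0 of 35 genes passed, where 0.125% of all genes did, and 2 had an unadjusted p under 0.05 (4.17% of all genes). Between CA3-like and CA1-like neurons 0 of 34 passed, where 0.04% did, and 0 had an unadjusted p under 0.05 (4.88% of all genes). DESeq2 called none of the 36 in either. The opposite signs of Grm5 in Prox1/Neurod1 (log2 0.60) and CA1-like neurons (-0.33) gave a difference of 0.91 ± 0.19 (SE, adjusted p = 0.104).

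**Figure D5:**
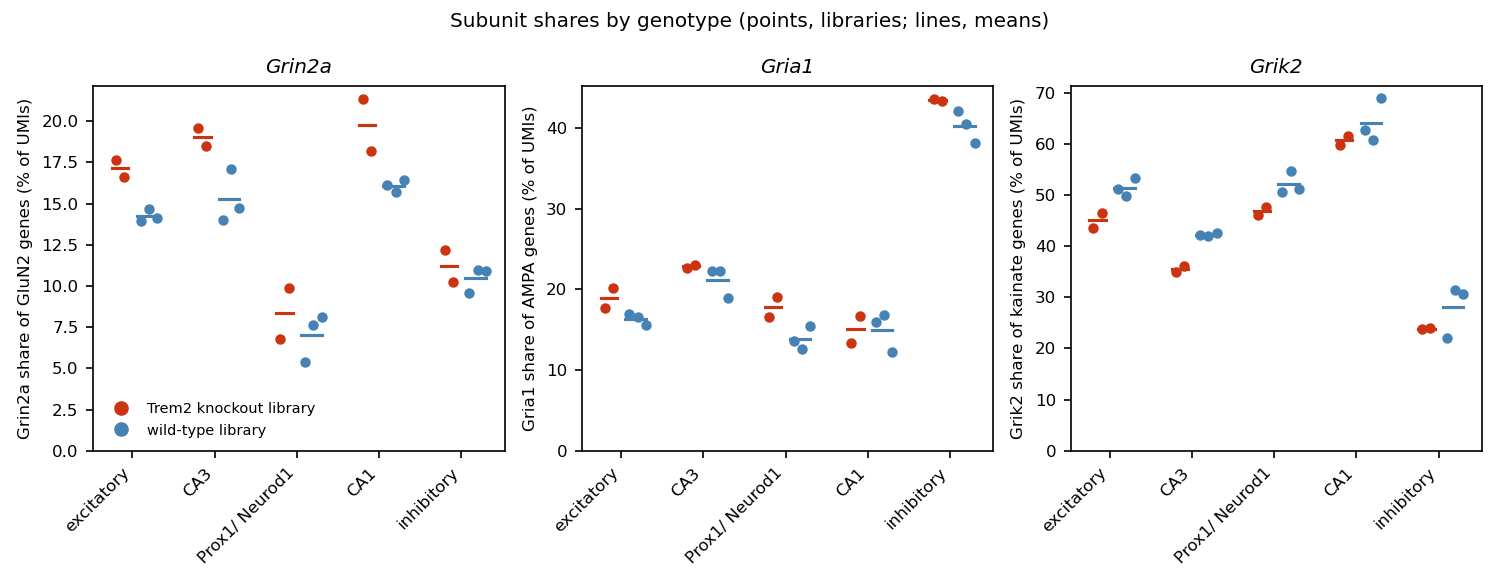
Points are libraries and lines group means of the share of the family's UMIs (%, y axis from 0) that Grin2a, Gria1 and Grik2 take in each neuron class, knockout left of wild type. Within excitatory neurons the Grin2a share is 16.6% and 17.7% in knockout libraries and 14.0% to 14.7% in wild-type ones.

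Subunit shares gave the same comparison within a family, so that a library's depth and class total cancel. Over 238 shares (34 genes in 7 classes) the groups did not overlap in 73, which is 30.7% and is the only background for single shares here. The shares of 1 family are tied, excitatory neurons contain 3 other classes, and no share passed adjustment over the 238 (smallest adjusted p = 0.67). None could pass, since the exact permutation test cannot give a p below 0.1 with these libraries. In excitatory neurons Grin2a made up 17.7% and 16.6% of GluN2 UMIs in knockout libraries, against 14.0%, 14.7% and 14.1% in wild-type libraries, a difference of 2.88 percentage points (exact two-sided permutation test, p = 0.1). Grin2b was the counterpart, at 81.7% and 82.7% in knockout libraries, against 85.3%, 84.7% and 85.4% in wild-type libraries. The Grin2a share lay higher without overlap in CA3-like neurons (19.6% and 18.5% against 14.0%, 17.1% and 14.8%, exact permutation p = 0.2) and CA1-like neurons (21.3% and 18.2% against 16.1%, 15.7% and 16.4%, exact permutation p = 0.1) too. In Prox1/Neurod1 neurons the groups overlapped (6.81% and 9.90% against 5.42%, 7.62% and 8.10%).
Gria1 made up 17.6% and 20.2% of AMPA UMIs in knockout excitatory neurons, against 17.0%, 16.5% and 15.6% in wild-type ones, but in CA1-like neurons the groups overlapped (13.4% and 16.8% against 15.9%, 16.8% and 12.3%). Grik2 made up 43.6% and 46.5% of kainate UMIs in knockout excitatory neurons, against 51.1%, 49.7% and 53.3% in wild-type ones, and 35.0% and 36.2% in knockout CA3-like neurons, against 42.1%, 41.9% and 42.5% in wild-type ones (exact permutation p = 0.1 each). In CA1-like neurons the Grik2 shares overlapped, at 59.8% and 61.6% in knockout libraries, against 62.7%, 60.7% and 69.0% in wild-type libraries. CA3-like cells were 21.8% and 22.0% of excitatory neurons in knockout libraries, against 16.5%, 21.9% and 18.4% in wild-type libraries, and the part of this in the shares over all excitatory neurons was not tested.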

How the data were processed

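The deposited values are whole-number UMI counts per gene and cell barcode that the authors did not normalise; per the submitters' processing notes Cell Ranger 6.1 and the mouse build mm10 were used. Cells were kept from 500 genes and 1000 UMIs upward and up to 15% mitochondrial UMIs, and were gated by detected markers. Marker lists were written first and the numbers of markers required after seeing marker distributions. Of the 9 listed CA3 markers, Nectin3, Ociad2 and Dkk3 were not counted in the gate. They had risen and fallen with CA1 markers or with neither. Droplets that met several classes (1566, or 5.1%) were removed as doublets, and no doublet caller was used. Of the rest, 3643 cells met no class.

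UMIs of each class were added up within each library, and edgeR 4.0.16 was run on these sums (quasi-likelihood, TMM factors, filterByExpr, Benjamini-Hochberg over all genes, threshold 0.05), also on simulated data. Genotype was the only term between genotypes. Between classes the library was a block. DESeq2 1.42.0, other scalings, filters and gates and leaving out each library were alternatives. The members and lists were chosen with earlier results of these data known. Genes were named by rule: the leading gene of each family, the 3 smallest p-values per genotype comparison and up to 4 genes per direction between classes with at least 20 counts. Other genes are examples picked after their values were seen. Replicate numbers are shared by the 2 genotypes for 2 pairs only, which does not establish pairing. The interaction over class pairs other than the planned ones was added after seeing the data.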

Additional observations from a re-analysis of the deposited data

Results flagged for a closer look

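The knockout effect on Grin2b differed between oligodendrocyte precursor-like cells and Prox1/Neurod1 neurons, by -1.45 ± 0.32 (log2, SE, edgeR interaction term, adjusted p = 0.047), among 514 tests of the 36 genes over 15 pairs of classes, where 0.0352% of all gene tests passed. The p was adjusted within the pair of classes and not over the 15. Grin2b lay lower in both knockout precursor libraries than in each of the 3 wild-type ones, on 12 UMIs in each knockout library. The knockout precursor values were at the level of Grin2b in vascular cells, the class used as a floor. No other difference of the 514 passed, and 57 (11.1%) had an unadjusted p under 0.05, where 4.81% of all gene tests did. The pairs reuse the same classes, so these tests are not independent. Pairs with Prox1/Neurod1 neurons held 8 (CA1-like), 8 (CA3-like), 4 (inhibitory), 2 (astrocyte and radial glia-like) and 5 (precursor-like) of the 57. Each of the other pairs held 0 to 5.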

How the results depend on the processing

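Knockout against wild type, where edgeR called 0 genes in each of the 7 classes, gave some calls elsewhere. DESeq2 called 1 gene in excitatory, 1 in CA1-like and 2 in CA3-like neurons, and 1 in oligodendrocyte precursor-like cells. With no filter on low counts 1 gene passed in excitatory, 19 for CA1-like, 12 for CA3-like, 59 for Prox1/Neurod1 and 42 in inhibitory neurons, 26 in astrocyte and radial glia-like and 13 in precursor-like cells. A mitochondrial limit of 5% gave 1 in CA3-like and 4 in inhibitory neurons. With the count of males per pool as a covariate the calls were 1 for excitatory, 1 for CA1-like, 4 for CA3-like and 20 for inhibitory neurons, 1 in astrocyte and radial glia-like and 4 in precursor-like cells. Leaving out each library gave 0 to 1 for CA1-like, 0 to 3 for CA3-like, 0 to 42 in Prox1/Neurod1 and 0 to 15 in inhibitory neurons and 0 to 2 in precursor-like cells.

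With the replicate numbers as a block, 11 genes passed for CA1-like, 73 for CA3-like, 99 for Prox1/Neurod1 and 22 for inhibitory neurons. In astrocyte and radial glia-like cells 39 passed, and 57 in precursor-like cells. Deviations from the group mean in excitatory neurons correlated at 0.365 between the libraries numbered 2 and at 0.294 between those numbered 3. Unlike numbers gave -0.365 to 0.174. The deviations of the 2 knockout libraries mirror each other, so these values are not separate checks. Libraries numbered 2 were also the all-male pools by the descriptions, and pairing is not established. Among the 36 genes the block called 1 in CA3-like neurons (Camk2a, log2 -0.45, adjusted p = 0.0023), 2 in Prox1/Neurod1 neurons (Grm5, 0.52, adjusted p = 0.011, and Gria1, 0.39, adjusted p = 0.037) and 1 in precursor-like cells (Grin2b, -1.62, adjusted p = 0.0054). In the paired comparison of shares the difference was 2.73 percentage points for Grin2a in excitatory neurons, 3.73 for CA1-like, 3.12 for CA3-like and 0.493 for Prox1/Neurod1 neurons. With no filter 1 passed in Prox1/Neurod1 neurons (Grm5, 0.60, adjusted p = 0.015) and 1 in precursor-like cells (Grin2b, -1.36, adjusted p = 0.035), and leaving out a library gave 0 to 2 in Prox1/Neurod1 neurons. The cause of these differences was not tested.

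The difference of the knockout effect between inhibitory and excitatory neurons was called for 18 genes, against 0 with DESeq2, 46 with no filter, 0 with doublets kept and 14 to 63 without 1 library. Between CA3-like and CA1-like neurons 5 were called, against 0 with DESeq2, 36 with no filter, 1 with a stricter marker gate, 0 with doublets kept and 0 to 19 without 1 library. CA3-like against CA1-like neurons had 9 of the 36 genes lower and 3312 genes called with DESeq2, where edgeR had 15 and 5210. The Grin2a share in Prox1/Neurod1 neurons differed by -0.238 points without knockout replicate 3, and by -0.238 to 2.85 over the libraries left out. Between classes, 547 values of named genes under the alternatives kept direction and call, and 1 (Homer3 under DESeq2, adjusted p = 0.055) lost its call. A limit of 5% mitochondrial UMIs left too few cells for comparisons within or with CA1-like neurons, and a stricter gate for those of Prox1/Neurod1 neurons, so these were not run. In the small classes a level of a few CPM rests on few UMIs, such as 12 for Grin2b in each knockout library of precursor-like cells.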
